A study of Mus musculus with 19 samples.

Results

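Genes of the Hippo pathway were followed in single mouse blastocysts, 9 labelled Padi6-mutant and 10 labelled Control. The set holds 10 genes: the DNA-binding factors Tead4 and Tead1, the coactivators Yap1 and Wwtr1 (the gene of TAZ), the kinases Lats1 and Lats2, the angiomotins Amot, Amotl1 and Amotl2, and Nf2 (the gene of Merlin). They were picked by symbol, with no measured value in the rule, but with earlier results of these data known. All 10 were listed among the 14173 genes of the deposited table. Polyadenylated RNA had been captured from each embryo, copied by template switching, amplified by PCR and sequenced, so 1 library stands for 1 whole embryo.

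The 9 Padi6-mutant embryos came, per the design text, from oocytes with the Padi6P620A allele, and Padi6 encodes a protein of the subcortical maternal complex that the oocyte lays down. The mutation named is therefore the mother's, and the labels do not give the allele that came from the father. The 10 Control embryos carry no further label. No strain, age, litter, sex, collection day or hours of culture is given for either group, and embryos of 1 group may share a mother, in which case p-values would be too small. The mutant embryos are those that reached the blastocyst, since the design text says that some stop earlier.

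In the mouse preimplantation embryo the Hippo pathway reads whether a cell lies outside or inside. In inner cells NF2 and angiomotin at the cell junctions bring together the kinases LATS1 and LATS2, which phosphorylate YAP and TAZ and keep them out of the nucleus. In outer cells polarity holds angiomotin at the apical side, the kinases stay inactive, and nuclear YAP and TAZ join TEAD4 to switch on the trophectoderm factors Cdx2 and Gata3. The pathway thus acts largely through phosphorylation and location of proteins, neither of which a transcript level shows. A whole blastocyst also mixes outer and inner cells, so fewer cells of a type and less RNA per cell cannot be told apart.

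Of the 10 genes, 4 were lower in Padi6-mutant embryos and 0 were higher, by limma with an adjusted p under 0.05. At an unadjusted p under 0.05 it was 5 lower and 0 higher, where 19.6% of all genes were lower and 18.9% higher, 38.5% in all. Amotl2 was 2.1-fold lower, and Amot, Nf2 and Wwtr1 were each 1.65-fold lower. For each of these 4 genes, 9 of 9 Padi6-mutant embryos lay below the Control median. The 4 comprise 2 of the 3 angiomotins, the junctional adaptor Nf2 and 1 of the 2 coactivators, while both TEAD factors, both LATS kinases, Yap1 and Amotl1 did not pass. Over all 14173 genes tested, 12% were lower and 14.6% higher, 26.6% in all, at the same threshold. The median log2 fold change was -0.67 over the 10 genes and -0.10 over all genes, and 9 of the 10 lay below 0, as did 55.3% of all genes.

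**Figure D1:**
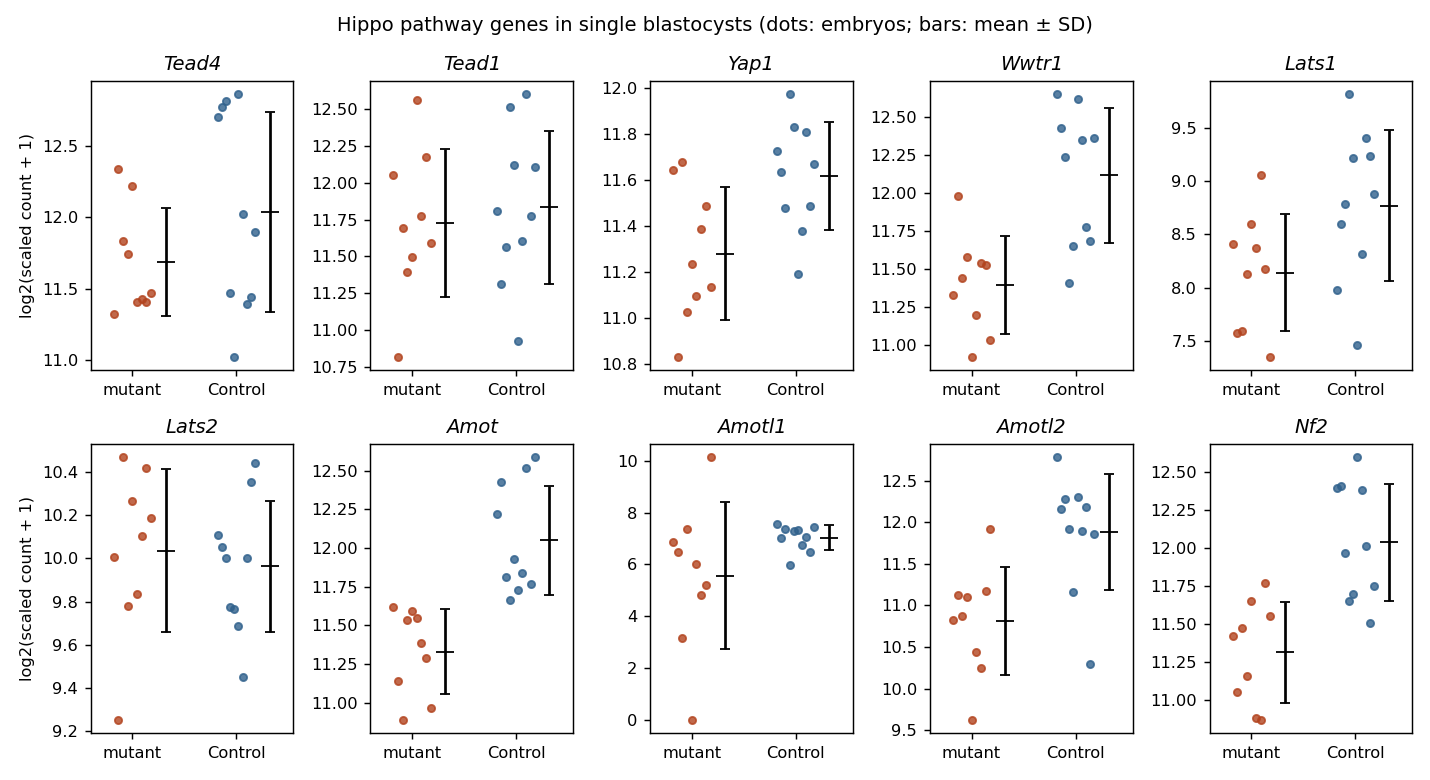
Level of each of the 10 genes in every embryo, as log2(scaled count + 1) on the vertical axis of each panel, with Padi6-mutant embryos (n = 9, red) left of Control embryos (n = 10, blue), and bars for mean ± SD. The axes differ between panels and do not start at 0. The 9 Padi6-mutant values of Amot, up to 11.62, all lie below the lowest Control value of 11.67.

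The library measures differed between the groups as well. The scaled total was 40.8 to 53.1 M in Padi6-mutant and 36.3 to 49.2 M in Control libraries. Counts in the listed genes could be told from the steps between values in 9 libraries. They were 12.1 to 25.7 M in 7 Padi6-mutant and 28.4 to 32 M in 2 Control libraries. Only wide steps were searched for, so libraries with finer steps gave no value, and these ranges need not hold for them. The counts exceed the 4.2 M reads per library that the labels give as the average, and this gap was not resolved. Listed genes at 0 numbered 312 ± 191 in Padi6-mutant and 117 ± 76.2 in Control libraries (SD, n = 9 and 10). Padi6-mutant 6, 8, 9 and 10 had over 400 each and are called the 4 sparse libraries here. The share of 18S ribosomal RNA in the scaled total was 4.89 ± 1.26% in Padi6-mutant and 9.55 ± 4.69% in Control libraries (SD, n = 9 and 10). Spearman's rho between transcript length and a gene's deviation from its mean averaged -0.24 ± 0.12 in Padi6-mutant and 0.17 ± 0.18 in Control libraries (SD), so long transcripts read lower in the mutant libraries. By the longest principal transcript, all 10 genes here are long, 3076 to 9964 nt, where the median over all genes is 2690 nt. By the shortest one, Tead1 and Tead4 have 1495 and 1718 nt. Among the 5601 genes with a transcript at least as long as the shortest of the 10, 18.1% were lower and 4.37% higher, with a median log2 fold change of -0.28. Of these long genes 69.3% lay below 0. Tested alone, the 7086 genes above the median level had 1332 lower and 1242 higher. After the trend on length and GC content was removed from each library, 1 of the 10 was lower (Amot), where 10.2% of all genes were. The median log2 fold change of the 10 was then -0.46, against -0.07 over all genes. With gene detection (the number of genes above 0 per library) as a covariate 2 were lower (Amot and Nf2), where 3.52% of all genes were, and without the 4 sparse libraries 3 were lower (Amot, Amotl2 and Nf2), where 6.64% of all genes were. Padi6 itself read 2.00 to 9.27 (median 6.48) in Padi6-mutant and 3.81 to 9.24 (median 6.48) in Control embryos, and the transcript of a maternal point mutant does not check the label.

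**Figure D2:**
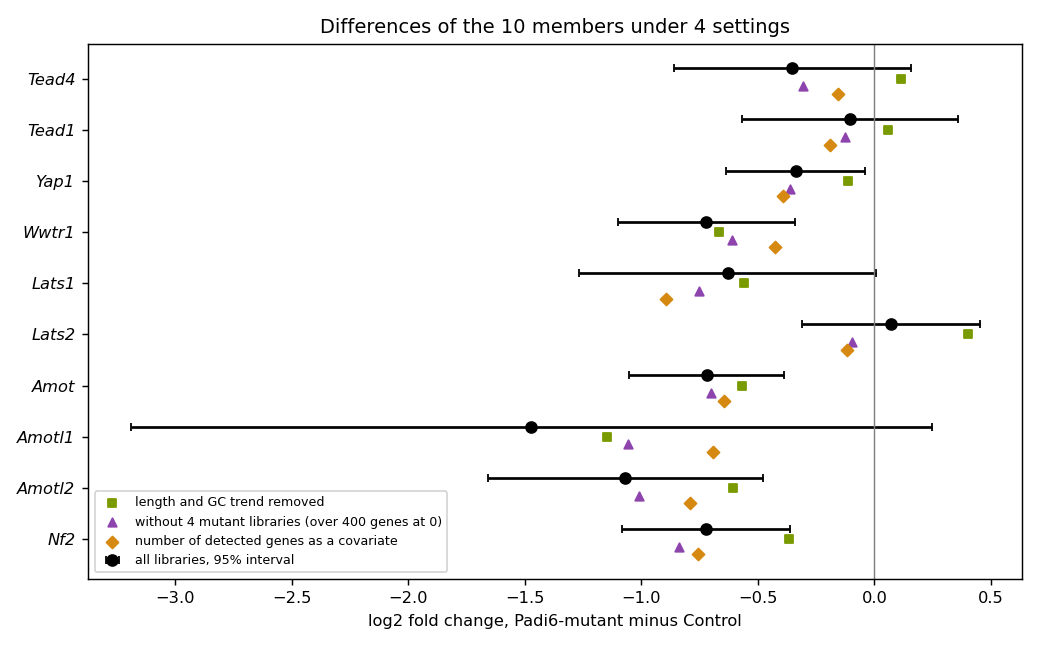
Log2 fold change of each gene, Padi6-mutant minus Control, on the horizontal axis, with black dots and 95% intervals for all 19 libraries, green squares with the length and GC trend taken out, purple triangles without the 4 sparse Padi6-mutant libraries, and orange diamonds with gene detection as a covariate. Amot lies at -0.72, -0.57, -0.70 and -0.65 in that order of symbols, and Nf2 at -0.72 and -0.37 before and with that trend taken out.

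Promoter sequence was set beside these values because the genes that fell include Amotl2, a common target of YAP and TEAD. RefSeq gave a promoter window, 250 bases before to 50 after a start, for 8 of the 10 genes (all but Tead4 and Tead1) on mouse build GRCm38.p6. The Amot, Amotl1 and Amotl2 windows lie wholly inside the annotated gene, as does a further window of Nf2 and of Lats2. For Amotl2 the window begins at chr9:102717554, downstream of the annotated gene start at 102717091. The core of the TEAD binding motif, GGAATG or its reverse complement CATTCC, was searched on both strands. It was present in the windows of 4 of these 8 genes: Wwtr1, Yap1, Amotl2 and Lats2. The same letters occur in 14.7% of 32851 promoter windows and in at least 1 window of 14.3% of 9575 genes of the expression table. The matches are shown with 12 bases on either side, 5′ to 3′ on the strand of the gene, with the motif in capitals. They lie at chr3:57576029-57576058 (minus strand), chr9:8004720-8004749 (minus), chr9:102717727-102717756 (plus) and chr14:57746102-57746131 (minus), in this order.
Wwtr1: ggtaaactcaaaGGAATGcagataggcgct
Yap1: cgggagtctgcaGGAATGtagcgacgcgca
Amotl2: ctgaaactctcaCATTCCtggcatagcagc
Lats2: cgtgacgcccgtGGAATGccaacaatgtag
The motif began 136 bases before the upstream start of Wwtr1, 141 before the start of Yap1 and 65 before the internal start of Amotl2. In Lats2 it began at position 5 after the upstream start. Of these 4 genes, Wwtr1 and Amotl2 fell and Yap1 and Lats2 did not pass, and of the 4 genes without the letters in their windows, Amot and Nf2 fell and Lats1 and Amotl1 did not pass. Both kinds of promoter thus occurred among the genes that fell. The 250 bases before the upstream start of Wwtr1 (chr3:57575911-57576160, minus strand) hold the motif upstream of a stretch rich in G and C, and those of Nf2 (chr11:4849545-4849794, minus strand) are shown as a promoter of a gene that fell without it.
Wwtr1: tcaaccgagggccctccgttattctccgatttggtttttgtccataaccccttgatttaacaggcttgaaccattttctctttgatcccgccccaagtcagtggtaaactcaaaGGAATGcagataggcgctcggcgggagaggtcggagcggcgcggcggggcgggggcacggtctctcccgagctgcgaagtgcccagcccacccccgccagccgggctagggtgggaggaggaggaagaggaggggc
Nf2: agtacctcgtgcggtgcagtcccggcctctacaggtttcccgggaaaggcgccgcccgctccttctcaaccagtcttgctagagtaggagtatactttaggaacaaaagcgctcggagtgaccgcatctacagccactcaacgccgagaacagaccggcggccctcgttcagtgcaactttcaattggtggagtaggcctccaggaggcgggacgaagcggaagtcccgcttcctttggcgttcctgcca

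Among the angiomotins, Amot separated the groups fully. Amot binds F-actin, NF2 and YAP, and in the inner cells of the mouse embryo it is needed to keep YAP out of the nucleus. Its log2 level ran from 10.89 to 11.62 (median 11.39) in Padi6-mutant embryos and from 11.67 to 12.59 (median 11.88) in Control embryos. No value overlapped, although the gap between the highest mutant embryo, number 2, and the lowest Control embryo, number 4, was narrow. Among all genes, 41 (0.289%) had every mutant below every Control value, and 378 (2.67%) the reverse. Amot changed by -0.72 on the log2 scale (SE 0.16, 95% interval -1.05 to -0.39, limma adjusted p = 0.00191), and it passed under each of the 11 other settings and without each of the 19 libraries in turn (-0.76 to -0.66).

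Amot lies on the X chromosome, so embryo sex could enter its level. The Y-linked genes Ddx3y, Eif2s3y, Kdm5d and Uty were high (mean log2 level 10.6 to 12.2) in 5 of 9 Padi6-mutant and 6 of 10 Control embryos and low (1.40 to 4.50) in the others. Among embryos with high Y-linked levels, Amot averaged 11.3 ± 0.34 in 5 Padi6-mutant and 12 ± 0.37 in 6 Control embryos (SD). Among those with low levels it averaged 11.4 ± 0.19 in 4 Padi6-mutant and 12.1 ± 0.37 in 4 Control embryos (SD). With the Y-linked level as a covariate the log2 fold change of Amot was -0.73 (limma adjusted p = 0.00212).

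Amotl2, an angiomotin that links junctions to actin and is a common YAP target, showed the largest fall of the 4. It read 9.63 to 11.92 (median 10.87) in Padi6-mutant and 10.29 to 12.78 (median 12.03) in Control embryos. The groups overlapped: 2 mutant embryos lay below all Control embryos and 5 Control embryos lay above all mutants, with Control 9 the low one of its group at 10.29 and Padi6-mutant 10 the high one at 11.92. Amotl2 changed by -1.07 on the log2 scale (SE 0.29, 95% interval -1.66 to -0.48, limma adjusted p = 0.00777). It was -0.61 with the length and GC trend taken out (adjusted p = 0.0511) and -0.79 with gene detection as a covariate (adjusted p = 0.139).

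Amotl1, the third angiomotin, was the lowest of the 10 genes, and in Padi6-mutant embryos the most uneven. It read 0 to 10.15 (median 6.00) in Padi6-mutant and 5.98 to 7.56 (median 7.17) in Control embryos, an SD of 2.84 in the mutants (n = 9) against 0.49 in Controls (n = 10). Padi6-mutant 6 had 0 scaled counts, which allows up to 3 counts or 6.28 scaled counts there (counting error only), and Padi6-mutant 10 had 1135. The log2 fold change of -1.47 (SE 0.83, 95% interval -3.19 to 0.25) did not pass (limma adjusted p = 0.198). It was -2.05 without Padi6-mutant 10 (adjusted p = 0.0425) and -0.78 without Padi6-mutant 6, so single embryos set its value.

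Nf2 encodes Merlin, the tumour suppressor of the cortex that presents LATS to its activating kinases and is needed in the inner cells of the mouse embryo. Its log2 level was 10.87 to 11.77 (median 11.42) in Padi6-mutant and 11.51 to 12.60 (median 11.99) in Control embryos. In all, 6 of 9 mutants lay below every Control embryo, and Controls 4, 5, 9 and 10 (11.51 to 11.75) lay within the mutant range. Nf2 changed by -0.72 on the log2 scale (SE 0.17, 95% interval -1.08 to -0.36, limma adjusted p = 0.00359). With the length and GC trend taken out it was -0.37 (adjusted p = 0.0842).

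The coactivators YAP and TAZ bind TEAD factors and carry no DNA-binding domain of their own. Wwtr1, the gene of TAZ, read 10.92 to 11.98 (median 11.44) in Padi6-mutant and 11.41 to 12.65 (median 12.29) in Control embryos. In 4 mutants it was below every Control embryo, and 6 Control embryos lay above every mutant. The log2 fold change was -0.72 (SE 0.18, 95% interval -1.10 to -0.34, limma adjusted p = 0.00545), or -0.67 with the length and GC trend taken out (adjusted p = 0.0560), -0.43 with gene detection as a covariate (adjusted p = 0.181) and -0.61 without the 4 sparse libraries (adjusted p = 0.0630).

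Yap1 read 10.83 to 11.68 (median 11.23) in Padi6-mutant and 11.19 to 11.97 (median 11.65) in Control embryos, with 8 of 9 mutants below the Control median. Its log2 fold change of -0.34 (SE 0.14, 95% interval -0.64 to -0.04) did not pass over all genes (limma adjusted p = 0.0864). A stretch of 116 exon bases of Yap1 overlaps Gm20416 on the opposite strand, and reads there cannot be assigned without strand. Whether Yap1 and Wwtr1 responded unlike each other was tested within embryos: Yap1 minus Wwtr1 was -0.12 ± 0.48 in Padi6-mutant and -0.50 ± 0.62 in Control embryos (SD, n = 9 and 10). The difference of 0.38 did not pass (exact permutation p = 0.150, adjusted over 6 pairs 0.450), so the fall of Wwtr1 was not shown to exceed that of Yap1.

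TEAD4 is the TEAD factor that the mouse trophectoderm requires, and TEAD1 is a related factor with partly overlapping function. Tead4 read 11.33 to 12.34 (median 11.47) in Padi6-mutant and 11.02 to 12.86 (median 11.96) in Control embryos. The Control embryos spread over a range that held all mutants, with Controls 1, 2, 3 and 6 between 12.70 and 12.86, above every mutant. The log2 fold change was -0.35 (SE 0.25, 95% interval -0.86 to 0.15, limma adjusted p = 0.301), it was 0.12 with the length and GC trend taken out, and with library quality weights it was -0.59 and passed (adjusted p = 0.0371), so no direction is read from it.

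Tead1 read 10.82 to 12.56 (median 11.70) in Padi6-mutant and 10.93 to 12.60 (median 11.79) in Control embryos, and the groups overlapped almost fully. For Tead1 the log2 fold change was -0.10 (SE 0.22, 95% interval -0.57 to 0.36, limma adjusted p = 0.764). Its sign turned with that trend taken out (0.06), with library quality weights (0.03) and without Padi6-mutant 3 (0.01). The 2 factors were not shown to differ in response: Tead4 minus Tead1 averaged -0.04 ± 0.83 in Padi6-mutant and 0.21 ± 1.15 in Control embryos (SD), a difference of -0.25 (exact permutation p = 0.594, adjusted over 6 pairs 0.620).

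LATS1 and LATS2 are the kinases that phosphorylate YAP and TAZ. Lats1 read 7.35 to 9.06 (median 8.17) in Padi6-mutant and 7.46 to 9.82 (median 8.83) in Control embryos, with 8 of 9 mutants below the Control median. Its log2 fold change was -0.63 (SE 0.31, 95% interval -1.27 to 0.01, limma adjusted p = 0.134). Lats2, by contrast, read 9.25 to 10.47 (median 10.10) in Padi6-mutant and 9.45 to 10.44 (median 10.0) in Control embryos, and 3 of 9 mutants lay below the Control median. The log2 fold change of Lats2 was 0.07 (SE 0.18, 95% interval -0.31 to 0.45, limma adjusted p = 0.805), and its sign turned with gene detection as a covariate (-0.12) and without the 4 sparse libraries (-0.09). The exons of Lats2 share 2955 bases with Gm49361 on the same strand, a gene model that the table does not list.

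Of the 6 pairs of related genes, the LATS kinases had the lowest p. Lats2 minus Lats1 was 1.05 to 2.88 (mean 1.90 ± 0.63, SD, n = 9) in Padi6-mutant and -0.04 to 2.23 (mean 1.19 ± 0.70, SD, n = 10) in Control embryos. The difference of 0.70 had an exact permutation p of 0.0365 and did not pass after adjustment over the 6 pairs (0.219), while with the length and GC trend taken out it was 0.96 and passed (adjusted p = 0.0081). The 3 angiomotin pairs did not pass either. Amotl2 minus Amot averaged -0.52 ± 0.85 in Padi6-mutant and -0.17 ± 0.68 in Control embryos (SD; difference -0.35, exact permutation p = 0.332, adjusted 0.620). Amotl1 minus Amot averaged -5.77 ± 2.91 in Padi6-mutant and -5.02 ± 0.45 in Control embryos (difference -0.75, exact permutation p = 0.473, adjusted 0.620), and Amotl2 minus Amotl1 5.26 ± 2.31 in Padi6-mutant and 4.85 ± 0.65 in Control embryos (difference 0.40, exact permutation p = 0.620, adjusted 0.620).

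Levels of different genes were set side by side per kilobase of the longest principal transcript, on the log2 scale. In Padi6-mutant embryos the order was Tead4 (10.07 ± 0.38), Yap1 (9.24 ± 0.29), Wwtr1 (9.17 ± 0.32), Nf2 (9.08 ± 0.33), Amotl2 (8.70 ± 0.65), Amot (8.53 ± 0.27), Tead1 (8.42 ± 0.50), Lats2 (7.66 ± 0.37), Lats1 (5.32 ± 0.54) and Amotl1 (2.97 ± 2.04; SD, n = 9). In Control embryos it was Tead4 (10.42 ± 0.70), Wwtr1 (9.89 ± 0.44), Nf2 (9.80 ± 0.39), Amotl2 (9.77 ± 0.70), Yap1 (9.58 ± 0.24), Amot (9.25 ± 0.35), Tead1 (8.52 ± 0.52), Lats2 (7.59 ± 0.30), Lats1 (5.94 ± 0.70) and Amotl1 (3.96 ± 0.46; SD, n = 10). Yap1 thus stood next to Tead4 in mutant embryos and below Amotl2 in Controls, but the neighbours from Yap1 down to Tead1 in the mutants, and from Wwtr1 down to Amot in the Controls, differed by less than the SD of their within-embryo difference. Lats2 lay above Lats1 by 2.34 ± 0.61 in Padi6-mutant embryos (in 9 of 9) and by 1.65 ± 0.69 in Control embryos (in 10 of 10; SD). With the shortest principal transcript it did so by 1.56 ± 0.62 (in 9 of 9) and 0.87 ± 0.70 (in 9 of 10; SD). The place of the TEAD factors depended on the transcript: with the shortest principal transcript Tead1 read 11.15 and Tead4 10.91 in Padi6-mutant embryos, and 11.25 and 11.26 in Control embryos.

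**Figure D3:**
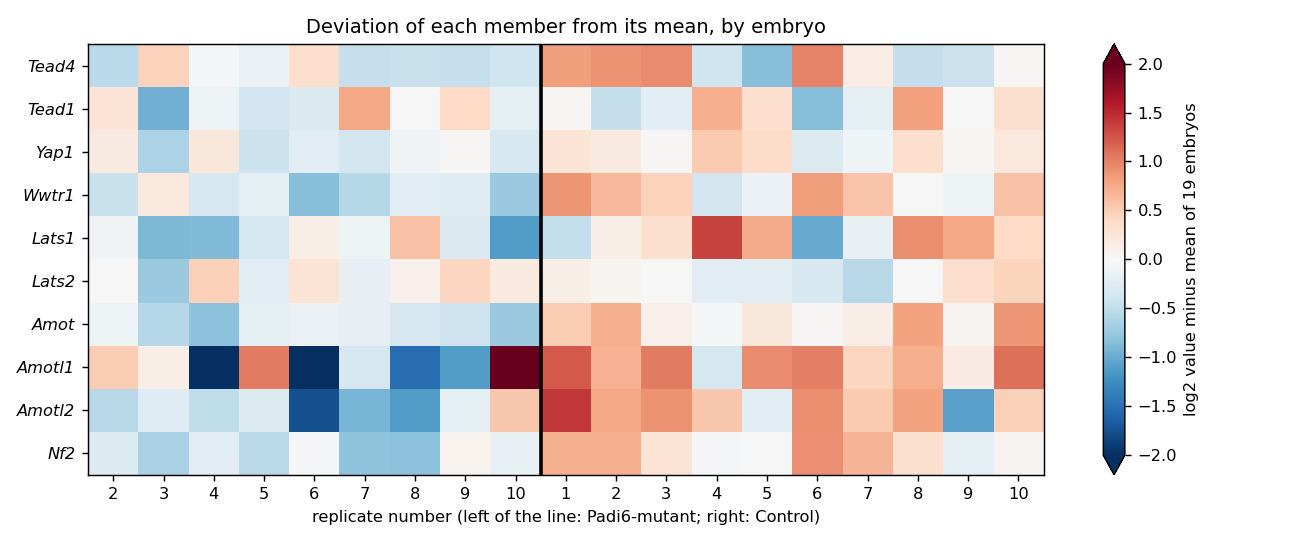
Deviation of each gene (rows) from its mean over the 19 embryos, on the log2 scale, in every embryo (columns), with Padi6-mutant embryos left of the black line and Control embryos right of it; colours stop at -2 and 2, which Padi6-mutant 4, 6 and 10 exceed for Amotl1. Blue fills the Amot, Amotl2, Nf2 and Wwtr1 rows on the left with few exceptions, while Tead4 and Tead1 take opposite colours in many embryos.

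Members also varied together among embryos of 1 group. Values were centred on their group mean, and Pearson's r and Spearman's rho over 19 embryos were tested by 100000 permutations within groups, adjusted over 45 pairs. In 10 pairs (22.2%) r passed, 4 positive and 6 negative, and rho passed in 7. An r at least as far from 0 as the smallest of these 10 was found in 5.56% of all pairs among the 14173 genes, and in 10.9% of the pairs among the 7086 genes above the median level, given as a description, since all pairs share the same libraries. Tead4 and Tead1 ran opposite to each other (r = -0.75, permutation adjusted p = 0.00945; rho = -0.78, permutation adjusted p = 0.00945). This was seen in Padi6-mutant embryos (r = -0.79, n = 9, permutation p = 0.00766) and in Control embryos (r = -0.77, n = 10, permutation p = 0.00914), and r was -0.70 without Controls 3 and 6. The p-values within 1 group, here and below, are unadjusted. They were computed only for pairs that had passed over the same 19 embryos, so they describe those pairs and are no independent test. In Padi6-mutant 3, for instance, Tead4 was at its mutant maximum of 12.34 and Tead1 at its minimum of 10.82, and in Control 6 the pair stood at 12.86 and 10.93.

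The other pairs that passed joined the same few genes. Tead1 ran with Yap1 (r = 0.66, rho = 0.66, permutation adjusted p = 0.0302 and 0.0341) and with Lats1 (r = 0.65, rho = 0.60, permutation adjusted p = 0.0302 and 0.0537). Tead4 ran with Wwtr1 (r = 0.69, rho = 0.67, permutation adjusted p = 0.0302 and 0.0391) and against Lats1 (r = -0.63, rho = -0.72, permutation adjusted p = 0.0412 and 0.0262). Wwtr1 ran against Lats1 (r = -0.66, rho = -0.68, permutation adjusted p = 0.0302 and 0.0340) and against Tead1 (r = -0.61, rho = -0.51, permutation adjusted p = 0.0412 and 0.119). Lats1 ran against Nf2 (r = -0.64, rho = -0.64, permutation adjusted p = 0.0305 and 0.0391) and against Amotl2 (r = -0.60, rho = -0.70, permutation adjusted p = 0.0423 and 0.0262). Without the 2 embryos farthest from the median of the gene named first in each pair, r was 0.45 for Tead1 and Yap1, 0.49 for Tead1 and Lats1, 0.67 for Tead4 and Wwtr1, -0.59 for Tead4 and Lats1, -0.55 for Wwtr1 and Lats1, -0.42 for Tead1 and Wwtr1, -0.51 for Lats1 and Nf2, and -0.69 for Lats1 and Amotl2.

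In 7 of the 10 pairs r was farther from 0 among Control embryos. Wwtr1 and Lats1 had r = -0.15 in Padi6-mutant embryos (permutation p = 0.699, n = 9) and r = -0.91 in Control embryos (permutation p = 2.7e-04, n = 10), and Tead4 and Wwtr1 had r = 0.24 in Padi6-mutant (permutation p = 0.533) and 0.86 in Control embryos (permutation p = 0.00400). Whether the groups differed in r was not tested. The signs were the same in both groups for all 10 pairs. Amotl1 and Amotl2 (r = 0.61, permutation adjusted p = 0.0302; rho = 0.47, permutation adjusted p = 0.127) rested on Padi6-mutant 6 and 10, since r was 0.25 without them. Amot was in none of the 10 pairs.

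Processing bore on these relations. With the length and GC trend taken out 0 of the 45 pairs passed (8 at an unadjusted p under 0.05), with Tead4 and Tead1 at r = -0.65 (permutation adjusted p = 0.0995), an adjusted p that 7 pairs shared and none went below. Leaving out single embryos gave 1 to 11 pairs, with 1 pair without Control 6, 2 without Control 4, Control 5 or Padi6-mutant 3, 4 without Control 1 and 6 without Padi6-mutant 8. Against 3 library measures (genes at 0, the share of 18S ribosomal RNA, and the length correlation), 0 of 30 relations passed (3 at an unadjusted p under 0.05 by r and 5 by rho). The lowest permutation adjusted p was 0.0904, for Wwtr1 with genes at 0 (r = -0.55, rho = -0.49) and Nf2 with the 18S share (r = -0.62, rho = -0.66).

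**Figure D4:**
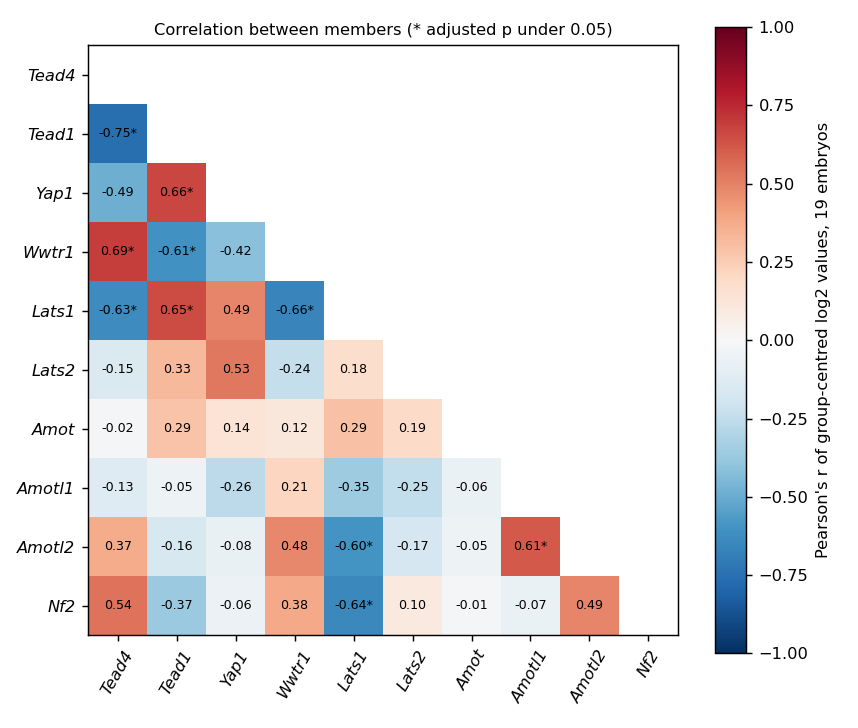
Pearson's r between each pair of the 10 genes over 19 embryos, from log2 values centred on their group mean, with an asterisk where the permutation adjusted p over 45 pairs is under 0.05. Tead4 with Wwtr1 (0.69) and Tead1 with Yap1 and Lats1 (0.66 and 0.65) are positive, and Tead4 with Tead1 (-0.75) is the most negative.

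**Figure D5:**
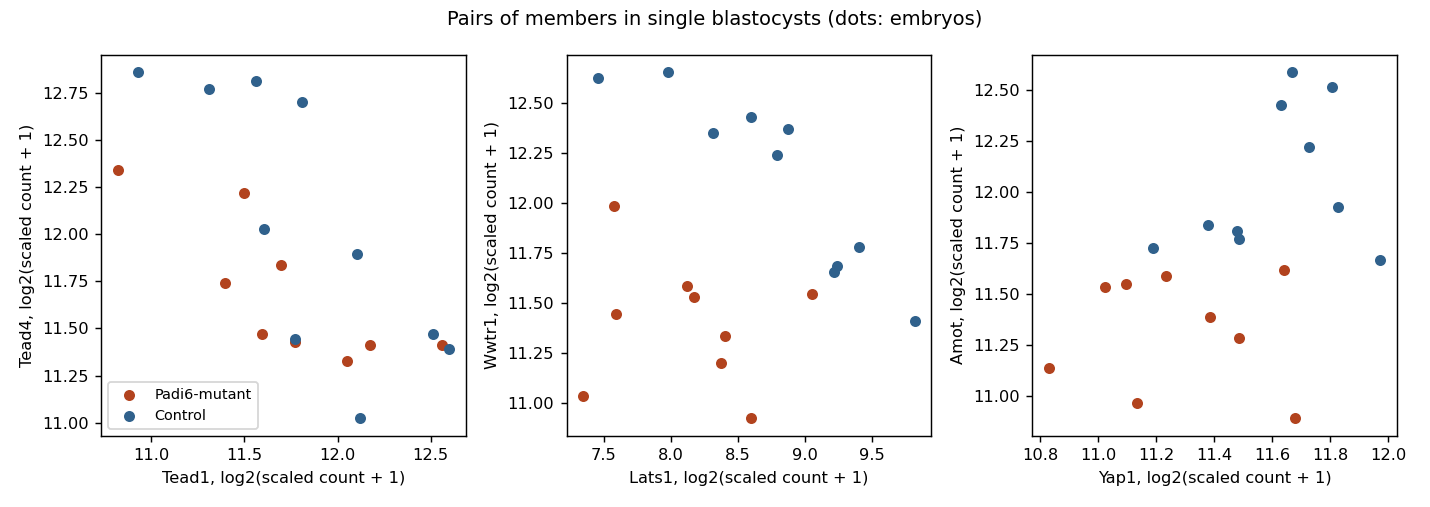
Log2(scaled count + 1) of 3 pairs of genes in each embryo, with Padi6-mutant embryos in red and Control embryos in blue, for Tead4 against Tead1, Wwtr1 against Lats1, and Amot against Yap1. The first panel slopes down in both groups (r = -0.79 in Padi6-mutant and -0.77 in Control embryos), the second does so mainly in Control embryos (r = -0.15 in Padi6-mutant and -0.91 in Control embryos), and in the third the groups overlap along the Yap1 axis and not along the Amot axis.

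Genes whose pattern over the 19 embryos was most like that of a member were found among 6918 named genes above the median level, by r of group-centred values, with no test. Tead4 was most like Bud13 (r = 0.95), Psmd3 (0.95), Fam234a (0.94), Poldip3 (0.94) and Tufm (0.93), where the 99th percentile of r over these genes was 0.84. Yap1 was most like Lemd3 (r = 0.84), Ctnnd1 (0.84), Cenpl (0.82), Rad21 (0.79) and Zfp26 (0.78). For the others it was Resf1 for Tead1 (0.93), H2-D1 for Wwtr1 (0.89), Aebp2 for Lats1 (0.88), Srgap2 for Lats2 (0.78), Wdr36 for Amot (0.80), Prkx for Amotl1 (0.83), Anapc2 for Amotl2 (0.90) and Ehd4 for Nf2 (0.78). The depth of a library, and its bias by transcript length, can act on many genes at once, and their part in these likenesses was not tested. With the length and GC trend taken out the r of these 18 likenesses was 0.36 to 0.83. Bud13 was then at 0.74 and Psmd3 at 0.83 to Tead4, Zfp26 at 0.36 to Yap1 and Srgap2 at 0.53 to Lats2.

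Upstream of LATS and beside it, of 15 listed core kinases, adaptors and partners (among them the MST kinases Stk3 and Stk4, Sav1, Mob1a, Mob1b and the TAO kinases), 1 was lower and 0 higher: Wwc2, a KIBRA relative that assembles with LATS, fell by 0.55 on the log2 scale (SE 0.15, limma adjusted p = 0.00700). It averaged 12.1 ± 0.33 in Padi6-mutant and 12.7 ± 0.23 in Control embryos (SD). Wwc2 was at -0.29 with the length and GC trend taken out (adjusted p = 0.107) and lost its call with gene detection as a covariate too (adjusted p = 0.0687). The list's median log2 fold change was -0.30, against -0.10 over all genes, and 13 of 15 lay below 0. With that trend taken out the median was -0.073, against -0.071 over all genes, and 0 of the 15 passed. At an unadjusted p under 0.05, 5 were lower and 0 higher, where 19.6% of all genes were lower and 18.9% higher. Of 10 genes of the STRIPAK phosphatase complex, which counters the MST kinases, the striatin Strn4 fell by 1.19 (SE 0.26, limma adjusted p = 0.00170), and the adaptor Sike1 rose by 0.43 (SE 0.16, limma adjusted p = 0.0442). Sike1 kept its call in 5 of the 19 fits that left out 1 library, with an adjusted p of up to 0.0875. With that trend taken out Strn4 was at -0.70 (adjusted p = 0.0157) and Sike1 at 0.52 (adjusted p = 0.0855). Mob4, named after its values were seen, was then higher at 0.61 (limma adjusted p = 0.0381). The median of the STRIPAK genes was -0.12.

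Of the 8 listed cofactors and competitors of YAP and TEAD (Tead2, Tead3, Vgll1, Vgll3, Vgll4 and the LIM proteins Ajuba, Limd1 and Wtip; Vgll2 was not listed), 1 was lower. Ajuba, which can bind and restrain LATS, averaged 8.53 ± 0.58 in Padi6-mutant and 9.34 ± 0.71 in Control embryos (SD) and fell by 0.81 (SE 0.30, limma adjusted p = 0.0494), close to the threshold, and it kept its call in 6 of the 19 fits that left out 1 library. With the length and GC trend taken out Ajuba was at -0.33 (adjusted p = 0.431). The median of these cofactors was -0.11. Of the 7 genes of 14-3-3 proteins, which hold phosphorylated YAP in the cytoplasm, 0 passed (2 lower and 1 higher at an unadjusted p under 0.05; median -0.21), and the 2 with the highest level, Ywhaz and Ywhaq, stood at -0.11 and -0.17 (limma adjusted p = 0.656 and 0.417). With the length and GC trend taken out 1 of the 7 was lower, Ywhah at -0.50 (limma adjusted p = 0.0306), named after its values were seen.

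Cell polarity and junctions are the route by which position reaches angiomotin. Of 22 such genes, 6 were lower and 0 higher, where 12% of all genes were lower and 14.6% higher. At an unadjusted p under 0.05, 10 were lower and 0 higher, where 19.6% of all genes were lower and 18.9% higher. The list's median log2 fold change was -0.44, against -0.10 over all genes. The 4 with the smallest adjusted p were Mark2, a polarity kinase (-0.63, SE 0.17, limma adjusted p = 0.00820), Pard3, a scaffold of the apical complex (-0.64, SE 0.18, adjusted p = 0.0108), Llgl1 of the basolateral Scribble module (-0.84, SE 0.24, adjusted p = 0.0130) and Pard6b of the apical complex (-0.66, SE 0.20, adjusted p = 0.0188). Scrib and the cadherin Cdh1, named after their values were seen to complete the 6, were at -0.65 and -0.48 (adjusted p = 0.0496 and 0.0247). With the length and GC trend taken out 0 of the 21 with a length were lower, where 10.2% of all genes were. Of the 21, 1 was higher, the atypical kinase Prkcz at 0.54, named after its values were seen. The list's median was then -0.04, where that of all genes was -0.07.

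Targets of YAP described in other mouse and human cells were sparsely listed, 11 of 20. Of the 11, 1 was lower and 0 higher: Dock5, an exchange factor, fell by 0.74 (SE 0.26, limma adjusted p = 0.0404), and it kept its call in 8 of the 19 fits that left out 1 library. Dock5 was at -0.50 with the length and GC trend taken out (adjusted p = 0.0966). The widely used targets Ccn1 and Ccn2, named outside the rule for that use, stood at -0.32 and -0.22 (limma adjusted p = 0.327 and 0.625). The list's median was -0.44, and 9 of 11 lay below 0. In the embryo the readout of the pathway is lineage choice, and of 5 such genes (Cdx2, Gata3, Eomes, Tfap2c and Sox2) 0 passed limma, adjusted or at an unadjusted p under 0.05, with a median of -0.17. Cdx2 was at -0.36 (SE 0.21, limma adjusted p = 0.214; 0.02 with that trend taken out), and Gata3, also switched on by TEAD4, at 0.15 (SE 0.21, limma adjusted p = 0.642), a sign that turned with library quality weights (-0.03) and under quantile normalization (-0.25). Sox2, held down in outer cells, read 8.23 ± 3.15 in Padi6-mutant and 9.17 ± 0.53 in Control embryos (SD), a log2 fold change of -0.93 (limma adjusted p = 0.459) that turned to 0.10 without Padi6-mutant 10, where it was at 0.

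Markers of the cell types within the blastocyst moved unevenly beside the Hippo genes. Their counts stand beside the 12% of all genes that were lower and the 14.6% that were higher at the same threshold. Of 19 trophectoderm markers 4 were higher (Dppa1, Tspan8, Id2 and Plac1, by 2.01, 1.48, 1.15 and 1.85 on the log2 scale; limma adjusted p = 3.6e-04, 0.00156, 0.0128 and 0.0175). A further 3 were lower, named after their values were seen: Krt7, Elf3 and Wnt7b at -0.77, -0.77 and -0.91. The median of the list was -0.05. Their summed scaled count was 173813 to 835548 in Padi6-mutant and 357838 to 576145 in Control embryos. Of 16 inner cell mass markers 7 were lower, among them Tfcp2l1, Tbx3 and Pou5f1 (-0.79, -0.74 and -1.26 on the log2 scale; limma adjusted p = 5.7e-04, 0.00120 and 0.00158), and 1 was higher, Dppa5a (2.1, limma adjusted p = 1.7e-05; 0.71 with the length and GC trend taken out, adjusted p = 0.00205), while Nanog was at 0.01 (limma adjusted p = 0.982). Their sum was 211057 to 404212 in Padi6-mutant and 192081 to 258961 in Control embryos, but Dppa5a made up 130673 to 296515 of it in Padi6-mutant and 19122 to 124596 in Control embryos. Without Dppa5a the sum of the other 15 was 80384 to 117110 in Padi6-mutant and 107630 to 190204 in Control embryos. Of 15 primitive endoderm markers 7 were lower, led by Lamc1, Lamb1, Cubn and Col4a1 (-1.0, -1.46, -1.97 and -1.35; limma adjusted p = 9.7e-04, 0.00194, 0.00829 and 0.0194), and 0 were higher. The medians were -0.76 for the inner cell mass and -1.10 for the primitive endoderm markers. With that trend taken out 5 inner cell mass markers were lower and 1 higher (median -0.62), and 3 primitive endoderm markers were lower (Lamb1, Lamc1 and Cubn; median -0.82), while Col4a1 lost its call (-0.82, adjusted p = 0.159). Of the trophectoderm markers, 3 were then higher and 1 lower, and Plac1 lost its call (1.18, adjusted p = 0.168). Among the 13357 genes with a length, 1364 (10.2%) were then lower and 1390 higher. With gene detection as a covariate Strn4, Sike1, Ajuba, Dock5, Mark2, Pard3, Llgl1, Pard6b, Pou5f1, Lamb1, Cubn, Col4a1, Id2 and Plac1 lost their calls (adjusted p = 0.0593 to 0.539). The sum of the primitive endoderm markers was 59759 to 100139 in Padi6-mutant and 63141 to 160868 in Control embryos, with Gata4, Amn and Srgn at 0 in at least 1 mutant. Of 14 cumulus and granulosa markers only Amhr2 and Nr5a2 were listed, and the sum was 3082 to 6219 in Padi6-mutant and 2391 to 7116 in Control embryos (0.86 and -0.09 on the log2 scale; limma adjusted p = 0.203 and 0.758). Nr5a2 carried most of that sum (mean log2 level 11.9, against 7.4 for Amhr2), and a sum carried by 1 gene cannot tell whether such cells were present. The part of cell composition in the falls of Amot, Amotl2, Nf2 and Wwtr1 was not tested.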

How the data were processed

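RNA of 19 single blastocysts (9 Padi6-mutant, 10 Control) was analysed, of 20 libraries that the labels count. The deposited table gives log2 values that the authors scaled to a common upper quartile, per the file's name and values. Taken back from log2 they lay within 1.96e-07 of whole numbers, so a pseudocount of 1 was used by the authors. Reads were processed with Trim Galore 0.4.4 and HISAT2 2.1.0 and builds GRCm39 and mm39 are named, per the submitters' processing notes; the counting tool and annotation are not given in the sources used here. No column was left unused.

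Groups were compared with limma 3.58.1 (trend; R 4.3.3), Benjamini-Hochberg adjusted over 14173 genes at 0.05, and the script was tested on simulated data. Log2 fold changes are Padi6-mutant minus Control on the log2(scaled count + 1) scale and understate changes of low genes. Within-embryo differences between related genes were tested exactly over 92378 splits, and correlations with SciPy 1.17.1. Lengths came from GENCODE release M 21 (longest principal basic transcript; 94.2% of genes) and promoters from RefSeq GRCm38.p6, older builds than the authors', so positions are RefSeq's alone. The trend was removed by lowess (span 0.3). The members and lists were chosen with earlier results of these data known. Named were all members, up to 4 genes per list by adjusted p (else the 2 most abundant), 5 lineage factors and the genes most like each member. Replicate numbers are numbers of the labels: same-numbered embryos correlated from -0.36 to 0.27, above 0.1 in 2 of 9 pairs, so they were not treated as pairs.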

Additional observations from a re-analysis of the deposited data

How the results depend on the processing

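Single embryos left out in turn ended none of the calls of Amot, Amotl2, Nf2 and Wwtr1 (highest adjusted p 0.00520, 0.0173, 0.00874 and 0.0122), and gave 4 to 5 lower genes of the 10. Amotl1 ran from -2.05 to -0.78, Tead1 from -0.21 to 0.011, Sox2 from -1.17 to 0.098, Nanog from -0.049 to 0.11, Amotl2 minus Amotl1 from -0.14 to 0.84, and the correlated pairs from 1 to 11.

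Taking out the length and GC trend left 1 of the 10 lower and 0 correlated pairs, with Wwtr1 at -0.67, Amotl2 at -0.61, Nf2 at -0.37, Tead4 at 0.12, Tead1 at 0.058, Cdx2 at 0.022, Nanog at -0.026, Tead4 minus Tead1 at 0.057 and Lats2 minus Lats1 at 0.96. Gene detection as a covariate left 2 lower, of 1807 genes changed (1308 higher, 499 lower), with Wwtr1 at -0.43, Amotl2 at -0.79, Lats2 at -0.12, Sox2 at 0.50, Tead4 minus Tead1 at 0.036 and Amotl2 minus Amotl1 at -0.099. Without the 4 sparse libraries 941 genes were lower, with Wwtr1 at -0.61, Lats2 at -0.095 and Sox2 at 0.42. Library quality weights gave 2689 lower genes, Tead4 at -0.59, Tead1 at 0.027, Gata3 at -0.030 and Nr5a2 at 0.045. Quantile normalization gave Gata3 at -0.25 and Nanog at -0.14, median-of-ratios scaling gave Nanog at -0.019, the Y-linked covariate, chosen after seeing the data, gave Nanog at -0.0077, a pseudocount of 10 gave Amotl2 minus Amotl1 at -0.11, and genes above the median level alone gave 1242 higher. That filter gave no value for Lats1 and Amotl1. The cause of these shifts was not tested.

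With the replicate number as a block, 1000 genes were lower (1697 without it) and 4 of the 10 genes. The numbers are shared numbers only: 1 of 9 same-numbered pairs had its best correlation with its own number. For the correlations the block and the covariate were not run, and for the differences within pairs the filter, weights and plain eBayes were not run. Of the alternatives of other named genes, 764 kept direction and side of the threshold, 81 lost the call, 3 gained it and 18 changed sign. Counting depth limits Amotl1, whose floor of 3 counts is 6.28 scaled counts in Padi6-mutant 6.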
